A study of Mus musculus with 75 samples.

Results

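The genes described here followed the amount of E2f4 in both directions. A gene was a member when its mean log2(CPM + 1) was at least 0.5 higher in E2f4_OE than in E2f4_OE_control and at least 0.5 lower in E2f4_sh1 than in E2f4_nt, with a mean CPM of 5 or more in E2f4_OE or E2f4_nt. CPM, counts scaled to a common library total, is the unit of every level given here. Members were thus chosen by their measured levels in these 4 groups. Of 24984 genes counted, 10618 had the CPM minimum and 133 were members, 1 of them E2f4 itself. What the members do in the same groups is a description, given without a test.

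The study followed skin fibroblasts of C57BL/6 mice in culture through replicative senescence, the loss of division that comes with repeated passaging, and then altered the level of 3 transcription factors. The passage series were untreated cells of 2-month-old female mice at P1, P3, P5 and P7, with 4 RNA-seq libraries a passage, and with 4 ATAC-seq samples at P1 and 3 at each later passage. For E2f4_OE (2 libraries), P4 cells received a lentivirus with E2f4 and EGFP that doxycycline switches on, and E2f4_OE_control (2 libraries) received the vector. E2f4_sh1 (3 libraries) carried a single hairpin against E2f4 in P3 cells, and E2f4_nt (3 libraries) was its knockdown control. Tead1 was knocked down with the hairpins sh3 and sh4 beside the control Tead1_nt, and Atf3 with sh5 and sh6 beside Atf3_nt, with 3 libraries each. The paper describes the cells of the Atf3 knockdown as pre-senescent, and the labels give no passage for the Tead1 and Atf3 libraries. According to the methods, manipulated cells came from newborn and from 2-month-old mice, and which library came from which was not given. No label says that replicates were separate cultures or animals, so p-values measure only the spread between these libraries.

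E2F4 is a member of the E2F family, which binds short GC-rich sites in the promoters of genes for DNA replication, DNA repair and mitosis. In resting cells E2F4 holds such genes down together with the pocket proteins Rbl1 and Rbl2 and the MuvB proteins, and other family members switch them on when cells enter the cycle. E2F proteins bind DNA with a DP partner, and E2F4 is present through much of the cell cycle.

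Promoter stretches of 6 members are printed because E2F forms were more frequent in the members than in other genes and because values of these 6 genes are given further on. The sequences are from RefSeq (GRCm38.p6), upstream of an annotated start site and outside its exons, written 5′ to 3′ on the strand of the gene. Capitals mark a match to 1 of the short E2F forms, searched on both strands. One form is TTCCCGC, another is TTGGCGC, a further one is TTCGCGC and the last is TTGCCGC.
Mcm6, chr1:128359727-128359829, minus strand: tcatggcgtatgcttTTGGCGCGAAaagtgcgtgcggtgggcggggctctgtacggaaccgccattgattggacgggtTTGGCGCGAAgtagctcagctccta
Uhrf1, chr17:56303274-56303310, plus strand: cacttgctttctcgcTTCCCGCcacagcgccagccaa
Cdc6, chr11:98907998-98908034, plus strand: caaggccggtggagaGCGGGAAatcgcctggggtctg
E2f8, chr7:48881686-48881722, minus strand: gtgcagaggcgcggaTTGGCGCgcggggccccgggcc
Tmpo, chr10:91170612-91170759, minus strand: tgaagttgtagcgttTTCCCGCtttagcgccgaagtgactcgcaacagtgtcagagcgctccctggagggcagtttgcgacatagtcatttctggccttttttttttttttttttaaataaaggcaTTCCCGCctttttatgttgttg
Ltbp4, chr7:27337695-27337731, minus strand: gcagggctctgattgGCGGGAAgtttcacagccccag
Mcm6 held 4 matches, which formed 2 overlapping pairs, Tmpo held 2, and the other 4 stretches held 1 each.

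RefSeq held a promoter, 250 bases before to 50 bases after a start site, for 91 of the 133 members and for 10643 of the 13442 genes tested over the passages. An E2F form occurred in the promoters of 34 of the 91 members (37.4%) and of 19.2% of the genes tested. The share was 23.4% among 1897 genes that met only the overexpression criterion, 19.5% among 123 that met only the knockdown criterion, and 10.9% among 101 of the mirror set, which fell with overexpression and rose with knockdown by the same thresholds. With 1 more T in front of each form, 15 members (16.5%) and 4.64% of the genes tested had a match. The match lay upstream of the start site in 22 members and in the 50 bases after it in 13. The median GC content of these promoters was 62.7% in the members and 60.9% in the genes tested, and its part in the shares was not tested.

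Other short motifs were searched in the same windows on both strands. CCAAT occurred in 49.5% of the members' promoters and 42.9% of those of the genes tested. TTTGAA or TTCGAA, forms of the CHR element of mitotic genes, occurred in 24.2% and 16.3%. GGAATG, the TEAD form, occurred in 18.7% and 14.7%, and TGAGTCA or TGACTCA, the AP-1 forms that are the same site read on each strand, in 3.30% and 4.67%. A match describes these letters in this window and is not a binding site by itself.

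Total counts per library lay between 9147324 and 27552949 over the 44 RNA-seq libraries. All 8 fibroblast markers had counts in every library. P1 also held RNA of other cells: the summed level of 12 macrophage markers was 382 to 594 CPM at P1 and 47.4 to 65.5 at P3, and that of 10 keratinocyte markers 80.8 to 485 at P1 and 4.75 to 7.87 at P3. The skeletal muscle sum was 145 to 228 CPM at P1 and 53.7 to 59.9 at P3, and that of 6 adipocyte markers 66.3 to 77.5 and 16.2 to 22.6. The sum of 7 endothelial markers went from 159.6 to 172 CPM at P1 to 42.2 to 52.2 at P3 and 8.37 to 11.1 at P7, while that of 8 Schwann cell and melanocyte markers was 39.3 to 49.3, 62.6 to 82.7 and 40.8 to 122. In the groups the rule used, the sum of 10 skeletal muscle markers was 22.9 to 23.9 CPM in E2f4_OE against 67.8 to 76.3 in its control and 111 to 137 in E2f4_sh1 against 75.1 to 78.1 in E2f4_nt, with 2 to 7 of the 10 at 0 in a library. The fibroblast sum was 25370 to 28049 in E2f4_sh1 against 33798 to 34672 in E2f4_nt. The part of these markers in the choice of members was not tested. No member is on any of these marker lists, and the whole course is also given from P3. The differences also followed the GC content of the transcripts in some comparisons. Across genes, which are not independent replicates, Spearman's rho with GC content was 0.59 for E2f4_OE minus E2f4_OE_control, -0.04 for E2f4_sh1 minus E2f4_nt and -0.64 for Atf3_sh5 minus Atf3_nt. Replicate 3 of Atf3_sh5 stood apart: its mean log2(CPM + 1) over the members other than E2f4 was 3.32, against 3.74 and 3.71 in the other replicates.

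E2f4 was at 35.9 and 47.3 CPM in E2f4_OE_control and at 1116 and 1171 in E2f4_OE, where counts of the introduced copy are included. It was at 59.7, 61.1 and 59.4 CPM in E2f4_nt and at 21.6, 20.3 and 21.6 in E2f4_sh1. Neither pair of groups overlapped, and the level rose 27.1-fold on overexpression and was 2.75-fold lower with the hairpin on the (CPM + 1) scale, so the 2 doses differed in size. Tead1 was at 567, 509 and 542 CPM in Tead1_nt, 269, 283 and 285 in Tead1_sh3 and 317, 315 and 320.4 in Tead1_sh4, and every knockdown library was below every control. Atf3 was low throughout its experiment, at 3.34, 2.87 and 2.82 CPM in Atf3_nt, 1.49, 2.12 and 0.458 in Atf3_sh5 and 1.47, 1.51 and 2.06 in Atf3_sh6. Its log2 fold change was -1.14 ± 0.39 (edgeR, adjusted p = 0.0447) with sh5, and with sh6 it was -0.79 ± 0.39 (edgeR, adjusted p = 0.114), which missed the threshold. The call with sh5 was lost in 11 of 16 alternatives, single libraries left out among them, and without replicate 3 of Atf3_sh5 the log2 fold change was -0.71.

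Far more genes differed by 0.5 or more between E2f4_OE and its control than between E2f4_sh1 and E2f4_nt. Of the 10618 genes with the CPM minimum, 2464 (23.2%) were higher by 0.5 or more in E2f4_OE and 2173 (20.5%) lower. In E2f4_sh1, 293 (2.76%) were lower by 0.5 or more and 439 higher. When each difference was centred on genes of like GC content, 1557 were higher in E2f4_OE and 274 lower in E2f4_sh1. The part of the E2f4 dose in these counts was not tested. The members were 5.40% of the 2464 genes higher in E2f4_OE and 45.4% of the 293 lower in E2f4_sh1. Their median difference was 1.02 in E2f4_OE and -0.59 in E2f4_sh1, and over all genes with the CPM minimum the medians were 0.06 and -0.02. All 133 members had both E2f4_OE libraries above both controls, and 121 had every E2f4_sh1 library below every E2f4_nt library, as the rule favours. The share of all genes with the CPM minimum that separate in this way was not counted, so nothing particular to the members is read from these counts. Both differences passed 1 in size in 2 members, E2f4 and Erdr1.

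**Figure D1:**
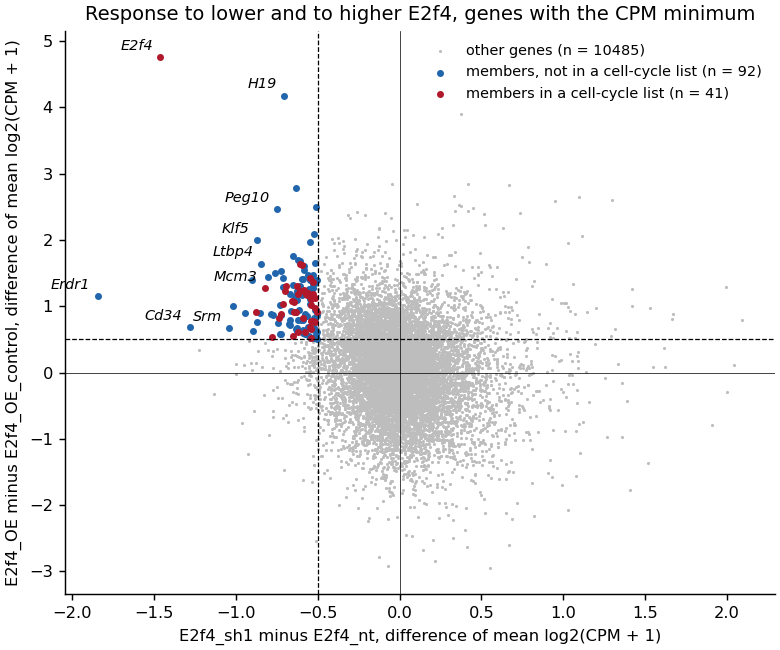
Difference of mean log2(CPM + 1) between E2f4_OE and its control (vertical axis) against that between E2f4_sh1 and E2f4_nt (horizontal axis) for the 10618 genes with the CPM minimum. Dashed lines mark the thresholds of 0.5 and -0.5, and the 133 members (red, in a cell-cycle list; blue, not in one) fill the upper left corner by construction, most of them near the knockdown threshold.

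Near the thresholds, Dennd3, a regulator of vesicle traffic, was just inside both, with differences of 0.50 and -0.50. Nsun2, an RNA methyltransferase, was inside with 0.51 and -0.52, and Rps6ka1, a kinase of the growth factor pathway, with 0.87 and -0.50. Among the genes just outside were Ttll12 (0.49 and -0.55), Pepd (0.48 and -0.92) and Polr1a (0.86 and -0.50). The membership of such genes rests on hundredths of a log2 unit.

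Among the members, 41 belong to 10 lists of cell-cycle genes with 303 measured genes, 6 to other lists and 86 to none of the 25 lists. The cell-cycle members covered origin licensing and the MCM helicase (9 members), the replication fork (7), DNA repair, nucleotide synthesis, the spindle, and E2F, DP and MYB factors (4 each), cyclins and cell-cycle kinases (3), the nuclear envelope and chromatin (3), condensin and cohesin (2) and the kinetochore (1). Of 296 cell-cycle list genes with the CPM minimum, 157 were higher by 0.5 or more in E2f4_OE and 64 were lower by 0.5 or more in E2f4_sh1. The members without a list were of many kinds and included the imprinted genes H19 and Peg10, the transcription factors Klf5, Irx1, Osr1, Scx and Sox12, and matrix and adhesion genes such as Ltbp4, Cdh3 and Cd34.

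Mcm3, a subunit of the MCM helicase that unwinds DNA at replication forks, was at 72.2 and 69.0 in E2f4_OE_control, 167 and 176 in E2f4_OE, 73.9, 65.9 and 63.9 in E2f4_nt and 36.0, 36.0 and 41.9 in E2f4_sh1, all in CPM. Its 2 differences were 1.27 and -0.82. Ticrr, which loads Cdc45 onto the helicase, was at 18.0 and 17.7 in E2f4_OE_control, 35.2 and 33.6 in E2f4_OE, 19.1, 12.7 and 18.2 in E2f4_nt and 9.27, 8.96 and 7.28 in E2f4_sh1. The libraries of the compared groups did not overlap for either gene.

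H19, an imprinted long noncoding RNA of growing fetal tissue, had the highest overexpression difference after E2f4 (4.17), with 43.4 and 59.2 in E2f4_OE_control, 916 and 947 in E2f4_OE, 88.7, 105 and 83.7 in E2f4_nt and 52.9, 46.7 and 71.0 in E2f4_sh1. Its knockdown difference was -0.71. Peg10, an imprinted gene derived from a retrotransposon, went from 45.8 and 33.6 to 217 and 227 CPM on overexpression and from 29.9, 31.7 and 30.7 to 18.5, 18.5 and 16.7 with the hairpin. Klf5, a zinc-finger transcription factor linked to proliferation, went from 3.67 and 4.42 to 16.8 and 21.5 CPM and from 4.86, 4.05 and 4.63 to 2.48, 3.17 and 0.869. Erdr1 had the lowest knockdown difference (-1.84), but its level is uncertain: it lies in a repeated region of the sex chromosomes, and its P1 libraries alone ranged from 0.665 to 12.6 CPM.

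The first question was how the members behave when fibroblasts age in culture, in libraries that the rule did not use. Most members fell. From P1 to P7, 77 of 133 (57.9%) were called lower (adjusted p under 0.05 and over 2-fold, edgeR) and 2 higher, where 13.3% and 8.1% of the 13442 genes tested were called. Log2 fold changes from edgeR are given with their standard error. At any fold change 104 were lower and 8 higher, with 31.9% and 30.5% of the genes tested. The median log2 fold change was -1.21 over the members and -0.01 over the genes tested. Of genes that met only 1 criterion, 13.1% of 2307 with the overexpression criterion and 36.3% of 160 with the knockdown criterion were called lower, and in the mirror set 8.53% were lower and 29.5% higher.

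The fall came at each step. At P3 against P1, 10 members were lower and 3 higher (6.58% and 2.4% of the genes tested). At P5 against P3 27 were lower and 0 higher (3.05% and 0.841%), and at P7 against P5 34 were lower and 0 higher (2.28% and 1.19%). The 10 at P3 were 7.52% of the members, near the background, and no fall particular to them is read from that count. At any fold change the counts lower and higher were 67 and 6 at P3 (17.5% and 16% of the genes tested), 58 and 7 at P5 (15.3% and 13.4%) and 63 and 0 at P7 (9.1% and 7.67%). With an offset for GC content the counts at P3 were 5 and 3, and 50 and 13 at any fold change. Consecutive steps share a passage and are not independent of each other. At an unadjusted p under 0.05, 9 members were higher at P5 against P3 and 2 at P7 against P5, and DESeq2 called 0 in both. Without replicate 1 of P3, 2 members were called higher at P5. The mean fell at every step in 92 members (69.2%) and in 25.1% of the genes tested. Every P7 library was below every P1 library in 108 members (81.2%) and in 40.9% of the genes tested. With P3 as the start, where the macrophage and keratinocyte sums were already low and the endothelial sum still fell, 57 members were lower at P7 and 1 higher, with 7.41% and 4.44% of the genes tested, and at any fold change 87 and 12 (26.5% and 24.8%).

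The courses of the members in cell-cycle lists and of the others are given side by side, and their difference was not tested. The mean log2(CPM + 1) of the 40 cell-cycle members other than E2f4 was 5.42 ± 0.06 (SD, n = 4) at P1, 4.84 ± 0.14 at P3, 3.91 ± 0.23 at P5 and finally 2.95 ± 0.09 at P7. The 92 other members went from 4.33 ± 0.04 to 3.90 ± 0.11, 3.74 ± 0.12 and 3.40 ± 0.05. Over all genes with the CPM minimum the library means also drifted down, from 5.30 to 5.32 at P1 to 5.06 to 5.10 at P7. The mean levels of the members are not corrected for that drift. From P1 to P7, 37 of 41 cell-cycle members were called lower, all 41 at any fold change, with a median log2 fold change of -2.68, against 40 of 92 other members with a median of -0.76. The cell-cycle members were called lower mostly at P5 against P3 (22) and P7 against P5 (23), with 1 at P3 against P1, and the counts among the other members were 5, 11 and 9. Already at P3, 29 of the 41 were lower at any fold change, with a median log2 fold change of -0.52, and 38 of the 92 others, with a median of -0.32. The 262 tested cell-cycle list genes that are no members fell too, with 196 called lower and a median of -1.98.

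**Figure D2:**
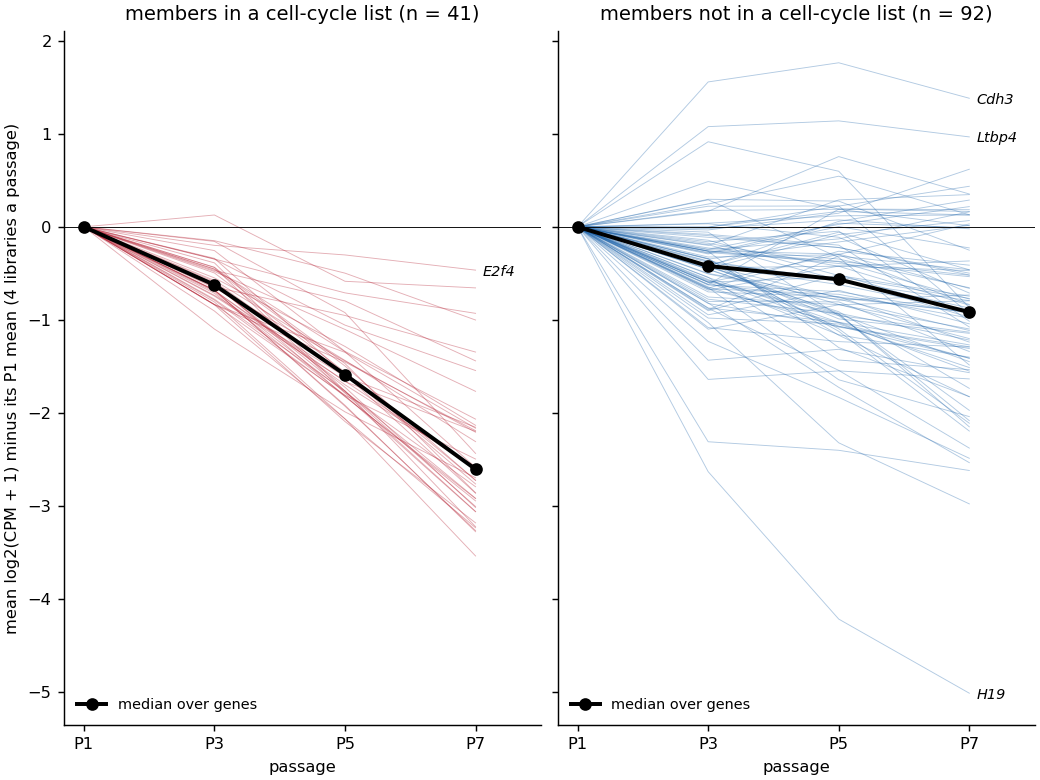
Mean log2(CPM + 1) of each member at P1, P3, P5 and P7, less its P1 mean, with 4 libraries a passage. Thin lines are genes, the black line is the median over genes, and the 41 members in a cell-cycle list (left) fall further, and more after P3, than the 92 other members (right), among which Cdh3 and Ltbp4 end above their P1 level.

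E2f4 itself fell less than most members over the passages, and the paper reports a gradual decrease. Its levels were 53.1, 45.0, 48.8 and 51.8 CPM at P1, then 42.0, 40.1, 46.3 and 44.2 at P3, 41.4, 36.9, 40.8 and 41.2 at P5 and finally 37.6, 38.7, 34.8 and 31.8 at P7. All P7 libraries were below all P1 libraries, and the log2 fold change from P1 to P7 was -0.27 ± 0.09 (edgeR, adjusted p = 0.0122). This call was lost without replicate 4 of P7, where the log2 fold change was -0.21, and with an offset for GC content, where it was -0.14.

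All 9 origin licensing members were called lower at P7, with a median log2 fold change of -2.76. Mcm3 was at 144, 139, 143 and 139 CPM at P1, then 85.7, 74.3, 93.5 and 72.8 at P3, 46.4, 33.5, 42.7 and 35.3 at P5 and finally 16.4, 21.7, 18.7 and 13.8 at P7, and no passage overlapped the next. Its log2 fold change from P1 to P7 was -2.79 ± 0.13 (edgeR, adjusted p = 2.62e-12). Mcm6, another helicase subunit, whose promoter carries the paired E2F forms shown above, was at 164, 157, 147 and 150.1 CPM at P1, then 111, 113, 120.2 and 106 at P3, 84.6, 57.2, 60.0 and 45.2 at P5 and finally 24.5, 27.7, 24.2 and 23.1 at P7. The log2 fold change of Mcm6 was -0.34 ± 0.12 (edgeR, adjusted p = 0.0421) at P3 and -2.42 ± 0.13 (edgeR, adjusted p = 1.79e-11) over the whole course, with no overlap between consecutive passages, and the call at P3 was lost in 9 of 24 alternatives, each without 1 library.

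Cdc6, which brings the helicase to origins, was at 30.5, 37.2, 32.9 and 28.7 CPM at P1, then 13.3, 16.7, 20.9 and 16.8 at P3, 9.86, 5.49, 8.20 and 5.09 at P5 and finally 2.02, 3.28, 2.31 and 2.60 at P7. The P7 libraries lay below all others, and the log2 fold change from P1 was -3.45 ± 0.21 (edgeR, adjusted p = 5.33e-11). For Mcm10, a fork assembly factor, the log2 fold change was -3.34 ± 0.21 (edgeR, adjusted p = 7.21e-11), and for Ticrr it was -3.20 ± 0.21 (edgeR, adjusted p = 1.48e-10). Neither passed the test at P3, and both passed it and fell over 2-fold at each of the next 2 steps. For Mcm10 the step to P5 was -1.42 ± 0.18 (edgeR, adjusted p = 2.04e-05) and the step to P7 -1.59 ± 0.22 (edgeR, adjusted p = 4.5e-05).

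All 7 replication fork members were called lower, with a median of -2.09. Uhrf1, which recruits the maintenance DNA methyltransferase to hemimethylated DNA behind the fork, was at 133, 129, 120.2 and 119.6 CPM at P1, then 75.02, 61.6, 80.7 and 68.8 at P3, 36.5, 23.8, 29.4 and 28.5 at P5 and finally 9.16, 13.1, 10.6 and 7.38 at P7. Each passage was below the one before without overlap, and the log2 fold change from P1 to P7 was -3.43 ± 0.15 (edgeR, adjusted p = 1.41e-12). The polymerase subunits Pold1 and Pole fell by 2.08 ± 0.15 and 2.62 ± 0.18 on the log2 scale. Among DNA repair members, all 4 were lower with a median of -3.12, led by Rad51ap1, a factor of homologous recombination, at -3.51 ± 0.21 (edgeR, adjusted p = 4.74e-11).

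Mybl2, the B-Myb factor that drives mitotic genes with MuvB, was at 33.5, 32.6, 28.3 and 28.7 CPM at P1, then 21.7, 15.6, 22.5 and 19.3 at P3, 10.3, 6.91, 8.65 and 7.79 at P5 and finally 2.52, 2.42, 2.16 and 2.46 at P7, and its log2 fold change to P7 was -3.47 ± 0.16 (edgeR, adjusted p = 1.41e-12). E2f8, an atypical E2F that represses E2F targets late in S phase, went from 31.8, 32.9, 32.0 and 31.0 CPM at P1 to 1.66, 4.06, 3.10 and 1.41 at P7 without overlap, a log2 fold change of -3.43 ± 0.24 (edgeR, adjusted p = 2.64e-10). Myc, the growth-promoting transcription factor, differed from both: it was at 77.1, 86.0, 67.1 and 79.0 CPM at P1, then 82.4, 80.1, 89.6 and 85.1 at P3, 58.8, 47.5, 52.97 and 45.7 at P5 and finally 50.6, 51.5, 40.7 and 52.2 at P7. Of the 3 steps Myc passed the test at P5 against P3, with -0.69 ± 0.10 (edgeR, adjusted p = 6.19e-05), and its log2 fold change from P1 to P7 was -0.46 ± 0.10 (edgeR, adjusted p = 0.000513).

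Members with a role in mitosis fell too. All 3 members among cyclins and kinases were lower with a median of -2.92, among them Aurkb, the kinase of the chromosomal passenger complex, with 53.1, 54.3, 55.0 and 48.4 CPM at P1 and 6.27, 6.13, 5.34 and 4.15 at P7. No library of one passage reached the other, and the log2 fold change was -3.06 ± 0.15 (edgeR, adjusted p = 5.25e-12). All 4 spindle members were lower with a median of -2.83, and Espl1, the protease separase that releases sister chromatids, was at -3.28 ± 0.15 (edgeR, adjusted p = 2.03e-12). Ncapd2, a condensin subunit, was at -2.68 ± 0.15 (edgeR, adjusted p = 2.2e-11), and Trip13, an ATPase of the spindle checkpoint, at -2.73 ± 0.16 (edgeR, adjusted p = 3.56e-11).

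Lmnb1, the nuclear lamin whose loss is a known sign of senescence, was at 101, 96.8, 101 and 100.5 CPM at P1, then 80.8, 70.4, 88.0 and 76.6 at P3, 43.6, 28.2, 33.4 and 27.2 at P5 and finally 13.4, 14.3, 13.6 and 10.4 at P7. The P1 and P3 libraries did not overlap, yet the change at P3 missed the threshold at -0.22 ± 0.12 (edgeR, adjusted p = 0.172), and the log2 fold change from P1 to P7 was -2.74 ± 0.14 (edgeR, adjusted p = 3.99e-12). Tmpo, which encodes lamina-associated proteins, fell by 2.75 ± 0.13 and Hmgb3, a chromatin protein, by 2.10 ± 0.20 on the log2 scale. Of the 4 nucleotide synthesis members, 2 were called lower, with a median of -1.01 over the 4. Dut, which removes dUTP, was at -0.74 ± 0.11 (edgeR, adjusted p = 1.09e-05), and Shmt2, the mitochondrial serine hydroxymethyltransferase, at -0.79 ± 0.08 (edgeR, adjusted p = 1.26e-07).

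Outside the cell-cycle lists, H19 had the lowest log2 fold change from P1 to P7. It was at 61.1, 57.1, 39.2 and 71.2 CPM at P1, then 7.32, 9.16, 7.28 and 9.10 at P3, 1.21, 2.85, 1.92 and 2.51 at P5 and finally 1.15, 0.356, 0.649 and 0.984 at P7. Each passage lay below the one before without overlap, and the log2 fold change from P1 to P7 was -5.96 ± 0.27 (edgeR, adjusted p = 1.46e-12). Klf5 was at 10.6, 12.6, 7.68 and 15.1 CPM at P1 and 1.37, 2.99, 2.02 and 1.69 at P7, a log2 fold change of -2.30 ± 0.26 (edgeR, adjusted p = 3.62e-07). Falls at P3 with no call at a later step were seen in Tmem158, a membrane protein induced by Ras, with -1.63 ± 0.22 (edgeR, adjusted p = 1.02e-05) at P3, and in Arhgap22, a GTPase-activating protein for Rac, with -1.06 ± 0.18 (edgeR, adjusted p = 0.000128). The log2 fold change of Irx1 was within its error, at -0.02 ± 0.16 (edgeR, adjusted p = 0.927).

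Other members outside the cell-cycle lists showed courses of their own. Peg10 was at 50.4, 70.6, 49.4 and 63.5 CPM at P1, then 36.8, 40.2, 38.3 and 42.5 at P3, 25.8, 21.2, 18.8 and 18.1 at P5 and finally 14.1, 19.9, 23.4 and 21.02 at P7, and its log2 fold change to P7 was -1.37 ± 0.15 (edgeR, adjusted p = 1.66e-07). Osr1, a zinc-finger factor of embryonic mesenchyme, was at 21.2, 21.5, 16.8 and 21.2 CPM at P1, then 23.0, 30.1, 21.3 and 21.1 at P3, 23.0, 24.6, 19.1 and 29.1 at P5 and finally 9.88, 13.1, 9.23 and 8.50 at P7. It passed the test at the last step alone, with -1.17 ± 0.16 (edgeR, adjusted p = 4.5e-05). Tead4, a partner of YAP and a relative of Tead1, had a log2 fold change to P7 of -1.79 ± 0.27 (edgeR, adjusted p = 1.28e-05).

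Grwd1, a histone-binding protein of ribosome assembly, was at 45.4, 46.2, 39.8 and 40.4 CPM at P1, then 33.1, 31.1, 33.7 and 29.0 at P3, 20.98, 18.0, 23.9 and 26.2 at P5 and finally 21.9, 17.6, 15.2 and 17.3 at P7. All P7 libraries were below all P1 libraries, with -1.05 ± 0.12 (edgeR, adjusted p = 3.63e-07). For Nsun2 the log2 fold change to P7 was -0.54 ± 0.09 (edgeR, adjusted p = 2.14e-05), for Scd2, a fatty acid desaturase, -0.62 ± 0.13 (edgeR, adjusted p = 0.000484), and for Ppif, the cyclophilin of the mitochondrial pore, -0.81 ± 0.13 (edgeR, adjusted p = 2.67e-05). Ndrg1, a gene induced by hypoxia, was within its error at P7, with -0.04 ± 0.08 (edgeR, adjusted p = 0.647), after steps of 0.42 ± 0.08 (edgeR, adjusted p = 0.000416) and later -0.46 ± 0.08 (edgeR, adjusted p = 0.0004).

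Only 2 members were called higher at P7 than at P1. Cdh3, the adhesion protein P-cadherin, was at 2.98, 2.65, 4.06 and 2.22 CPM at P1, then 10.5, 10.1, 9.94 and 11.7 at P3, 11.9, 13.4, 12.6 and 11.5 at P5 and finally 7.72, 9.05, 10.4 and 9.98 at P7. Every later library was above every P1 library, neither later step passed the test, and the log2 fold change to P7 was 1.85 ± 0.17 (edgeR, adjusted p = 1.14e-08). Ltbp4, a matrix protein that holds latent TGF-beta, was at 11.7, 10.3, 11.1 and 11.9 CPM at P1, then 27.3, 22.0, 23.5 and 26.7 at P3, 19.1, 21.1, 25.7 and 43.4 at P5 and finally 20.3, 20.95, 18.8 and 34.0 at P7. Here too every later library was above every P1 library and only the step to P3 was called, and the log2 fold change to P7 was 1.27 ± 0.22 (edgeR, adjusted p = 5.43e-05). Fbn2, a fibrillin of elastic microfibrils, rose at P3 with a log2 fold change of 1.07 ± 0.16 (edgeR, adjusted p = 5e-05) and had at P7 against P5 a log2 fold change of -1.49 ± 0.17 (edgeR, adjusted p = 7e-06). Jund, an AP-1 subunit, was higher at P7 by less than 2-fold, at 0.58 ± 0.18 (edgeR, adjusted p = 0.00803).

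The kinase inhibitors that mark senescence are no members and ran the other way over the passages. Cdkn2a was at 7.74, 8.90, 7.83 and 10.5 CPM at P1, then 20.4, 23.8, 16.4 and 24.8 at P3, 63.4, 71.2, 101 and 161 at P5 and finally 254, 207, 168 and 213 at P7, with no overlap between any passages, and its log2 fold change to P7 was 4.79 ± 0.26 (edgeR, adjusted p = 1.26e-11). Cdkn2b rose by a log2 fold change of 1.89 ± 0.17 (edgeR, adjusted p = 1.71e-08) and Cdkn1a by 1.53 ± 0.11 (edgeR, adjusted p = 3.88e-10). In the E2f4 experiments, described without a test, Cdkn2a was at 49.1 and 48.8 in E2f4_OE_control, 28.6 and 25.9 in E2f4_OE, 62.4, 64.1 and 62.2 in E2f4_nt and 53.5, 62.2 and 52.4 in E2f4_sh1. It was lower in both E2f4_OE libraries than in the controls, and the 3 E2f4_sh1 libraries were below or level with those of E2f4_nt.

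Some members stood at other levels in the manipulated cells than in the passage series. Cdh3 was at 21.1 and 25.5 CPM in E2f4_OE_control, 95.2, 104 and 95.4 in E2f4_nt, 64.0, 65.8 and 67.3 in Tead1_nt and 73.5, 82.1 and 80.5 in Atf3_nt, and every one of these control libraries was above every library of P1 to P7. Fbn2 was likewise higher, at 458, 436 and 480.2 CPM in E2f4_nt and 216, 204 and 213 in Tead1_nt, against 41.6, 45.8, 28.7 and 45.2 at P3. Fold changes and tests were therefore kept within an experiment.

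**Figure D3:**
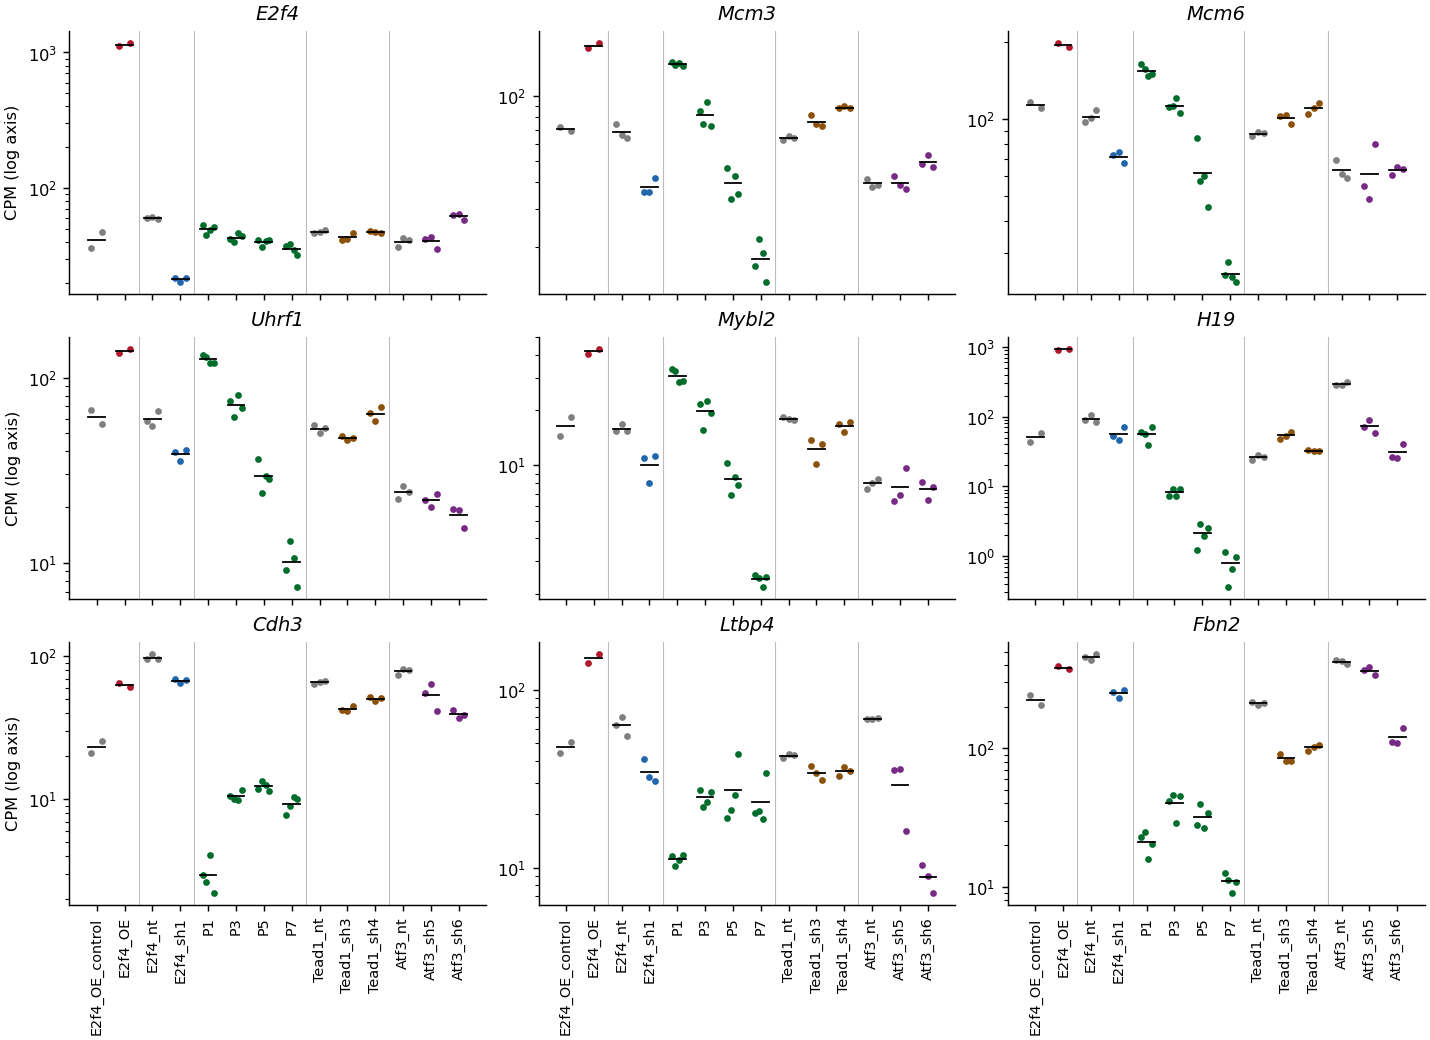
CPM of 9 members in every RNA-seq library (points; log axis) with the mean of each group (line), from the E2f4 experiments on the left over P1 to P7 to the Tead1 and Atf3 knockdowns on the right. Mcm3, Mcm6, Uhrf1 and Mybl2 fall from passage to passage, E2f4 falls much less than these, Cdh3 and Ltbp4 rise after P1, and H19 falls most.

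The second question was whether the members respond to the knockdown of Tead1, a transcription factor of the Hippo pathway. In Tead1_sh3, 1 member was called lower and 4 higher (0.722% and 1.99% of 13012 genes tested), and in Tead1_sh4 1 was lower and 1 higher (0.523% and 1.01%). Both hairpins were set against the same Tead1_nt libraries, so the 2 comparisons are not independent. At any fold change 25 were lower and 22 higher with sh3, and 15 and 30 with sh4 (17.7%, 17.6%, 14.7% and 14.4% of the genes tested, in this order). The members' counts past 2-fold were thus near the background, and no response particular to them is read from these. The 4 calls became 1 without replicate 1 of Tead1_nt and 1 without replicate 3 of Tead1_sh3. The median log2 fold change was -0.06 with sh3 and 0.06 with sh4, and the mean log2(CPM + 1) of the members without E2f4 was 4.14 ± 0.02 (SD, n = 3) in Tead1_nt, 4.12 ± 0.02 in Tead1_sh3 and 4.20 ± 0.03 in Tead1_sh4.

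Fbn2 was the member called lower with both Tead1 hairpins, at 216, 204 and 213 CPM in Tead1_nt, 91.3, 81.6 and 80.9 in Tead1_sh3 and 96.3, 103 and 106 in Tead1_sh4. The groups stood well apart, with log2 fold changes of -1.32 ± 0.05 (edgeR, adjusted p = 2.47e-18) and -1.06 ± 0.05 (edgeR, adjusted p = 3.05e-16). H19 rose, from 23.5, 28.6 and 26.5 CPM to 47.9, 53.7 and 61.0 in Tead1_sh3 and 33.6, 32.0 and 32.3 in Tead1_sh4. It was past 2-fold only with sh3, at 1.05 ± 0.08 (edgeR, adjusted p = 3.21e-12), and the difference between the hairpins was -0.74 ± 0.08 (edgeR, adjusted p = 1.49e-07). The helicase subunit Mcm3 rose slightly with both, by 0.25 ± 0.05 (edgeR, adjusted p = 0.000273) and 0.46 ± 0.05 (edgeR, adjusted p = 2.8e-08). The other members called higher with sh3 were Erdr1, Cd34 and Crabp2, and the 1 called with sh4 was Cd34. Cd34, a sialomucin of progenitor cells, and Crabp2, a retinoic acid carrier, were named after their values were seen. Between the hairpins, 1 member, Erdr1, was called lower in Tead1_sh4 than in Tead1_sh3 and 0 higher (0.246% and 0.0231% of the genes tested), and DESeq2 called 0 in both directions. At any fold change 4 were lower and 13 higher (4.03% and 3.34%), and at an unadjusted p under 0.05 35 were higher.

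The third question was the same for Atf3, an AP-1 partner induced by stress. With sh5, 14 of the 132 members tested were called lower and 0 higher (3.82% and 1.38% of 13345 genes tested), and with sh6 17 were lower and 1 higher (10.9% and 4.83%). The 17 were 12.9% of the members, near the background, and no fall particular to them is read from that count. Again both hairpins share the Atf3_nt libraries. At any fold change 42 members were lower and 4 higher with sh5, and 35 and 19 with sh6 (18.1%, 17.7%, 26% and 23.8% of the genes tested, in this order). At an unadjusted p under 0.05, 6 were higher with sh5, and DESeq2 called 0. Genes that met only the overexpression criterion were called lower in 6.99% with sh5 and 9.88% with sh6, against 10.6% and 12.9% of the members. At any fold change 38.6% of these genes were lower with sh5 and 23.5% with sh6, against 31.8% and 26.5% of the members. Their median log2 fold change was -0.37 with sh5 and -0.02 with sh6, where that of the members was -0.33 and -0.14. Genes that met only the knockdown criterion were called lower in 5.63% with sh5 and 14.4% with sh6, and those of the mirror set in 5.43% and 25.6%. At any fold change the shares lower were 16.9% and 37.5% with the knockdown criterion only and 14.7% and 41.1% in the mirror set. With sh6 both sets were thus above the members. Foxd1 was the member not tested in this experiment.

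The calls with sh5 depended on single libraries and on a correction for GC content. Without replicate 3 of Atf3_sh5 7 members were lower, without replicate 2 of Atf3_nt 7, and without replicate 3 of Atf3_nt 9. With an offset for GC content, 4 members were lower with sh5, and 12 lower and 3 higher with sh6. The counts lower and higher at any fold change were then 19 and 7 with sh5 and 30 and 34 with sh6, and the median over the members went from -0.33 to -0.01 with sh5 and from -0.14 to 0.03 with sh6. None of the 14 members called with sh5 was in a cell-cycle list. Among the 262 tested cell-cycle list genes that are no members, 1 (0.382%) was called lower with sh5, and their median log2 fold change was 0.14. Few calls with sh5 are thus not particular to the cell-cycle members. The mean log2(CPM + 1) of the 40 cell-cycle members was 3.90 ± 0.04 (SD, n = 3) in Atf3_nt, 3.78 ± 0.06 in Atf3_sh5 and 3.78 ± 0.04 in Atf3_sh6, and that of the 92 others was 4.03 ± 0.06, 3.51 ± 0.31 and 3.69 ± 0.06. The median log2 fold changes of the cell-cycle members and of the others were -0.08 and -0.55 with sh5 and -0.06 and -0.18 with sh6. With the GC offset they were 0.09 and -0.09 with sh5 and 0.09 and 0.01 with sh6.

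H19 was at 281, 281 and 315 CPM in Atf3_nt, 71.5, 90.2 and 59.2 in Atf3_sh5 and 26.6, 25.2 and 40.9 in Atf3_sh6. The 3 groups did not overlap, and the log2 fold changes were -1.99 ± 0.19 (edgeR, adjusted p = 0.000139) and -3.19 ± 0.20 (edgeR, adjusted p = 8.64e-07). Ltbp4 followed the same order, with 68.3, 68.7 and 69.0 CPM in Atf3_nt, 35.4, 36.1 and 16.1 in Atf3_sh5 and 10.4, 9.05 and 7.26 in Atf3_sh6. Its log2 fold changes were -1.24 ± 0.25 (edgeR, adjusted p = 0.00489) and -2.89 ± 0.27 (edgeR, adjusted p = 1.26e-05). Klf5 and Samd1, a reader of unmethylated CpG islands, were also called lower with both hairpins, with log2 fold changes of -1.46 and -1.13 for Klf5 and -1.47 and -1.09 for Samd1. Without replicate 3 of Atf3_sh5 the log2 fold changes with sh5 were -1.83 for H19, -0.92 for Ltbp4, -1.01 for Klf5 and -1.05 for Samd1, and Ltbp4 was then no longer past 2-fold. The calls of Klf5 were lost in 4 of 16 alternatives with sh5 and in 7 of 16 with sh6, mostly when 1 library was left out, and that of Samd1 with sh6 in 5 of 17. Samd1 was at 17.2, 16.04 and 4.58 CPM in Atf3_sh5, where replicate 3 was far below the others.

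Irx1, a homeobox transcription factor, was at 98.2, 109 and 109 CPM in Atf3_nt, 42.8, 51.5 and 30.7 in Atf3_sh5 and 61.4, 51.7 and 40.6 in Atf3_sh6. Every knockdown library was below every control, at -1.35 ± 0.19 (edgeR, adjusted p = 0.000942) with sh5 and at -0.99 ± 0.19 (edgeR, adjusted p = 0.00139), just short of 2-fold, with sh6. Osr1 was at 23.2, 28.2 and 24.2 CPM in Atf3_nt, 23.4, 23.2 and 18.3 in Atf3_sh5 and 8.26, 7.31 and 7.72 in Atf3_sh6, and its log2 fold change with sh6 was -1.65 ± 0.14 (edgeR, adjusted p = 4.92e-06). The helicase subunit Mcm6 was at -0.06 ± 0.16 (edgeR, adjusted p = 0.802) with sh5 and 0.05 ± 0.16 (edgeR, adjusted p = 0.815) with sh6, within its error in both.

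Between the 2 Atf3 hairpins, 10 members were called lower and 7 higher in Atf3_sh6 than in Atf3_sh5, and 13 and 5 with the GC offset. The 10 and 7 were 7.58% and 5.30% of the members, against 9.39% and 6.36% of the genes tested. At any fold change 21 were lower and 38 higher (15.9% and 28.8%, against 26.6% and 25.9% of the genes tested). The counts past 2-fold were thus not above the background, and no difference particular to the members is read from them. Fbn2 was at 434, 425 and 409.7 CPM in Atf3_nt, 369.6, 386 and 339 in Atf3_sh5 and 111, 108 and 139.9 in Atf3_sh6. Peg10 was at 43.5, 33.8 and 34.1 CPM in Atf3_nt, 34.4, 36.0 and 42.1 in Atf3_sh5 and 109, 113 and 124 in Atf3_sh6. Only sh6 moved them past 2-fold, Fbn2 down and Peg10 up, with 1.68 ± 0.12 (edgeR, adjusted p = 1.93e-06) for Peg10. E2f4 itself was at 37.0, 42.5 and 41.2 CPM in Atf3_nt, 42.3, 43.6 and 35.6 in Atf3_sh5 and 63.1, 64.5 and 58.2 in Atf3_sh6. It was higher in every sh6 library, with 0.67 ± 0.10 (edgeR, adjusted p = 0.000311). The mean log2(CPM + 1) of the other members was 3.72 ± 0.05 (SD, n = 3) in Atf3_sh6 and 3.99 ± 0.05 in Atf3_nt. Over all genes with the CPM minimum the library means were also lower, at 5.15 to 5.17 in Atf3_sh6 and 5.26 to 5.28 in Atf3_nt. The summed fibroblast markers were also lower in Atf3_sh6, at 15188 to 16540 CPM, than in Atf3_nt, at 39506 to 41161. The sum of the skeletal muscle markers was 193 to 209 CPM in Atf3_sh6, 14.2 to 18.5 in Atf3_sh5 and 37.9 to 40.1 in Atf3_nt, with 4 to 6 of the 10 at 0 in a library. The part of these markers in the results was not tested.

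**Figure D4:**
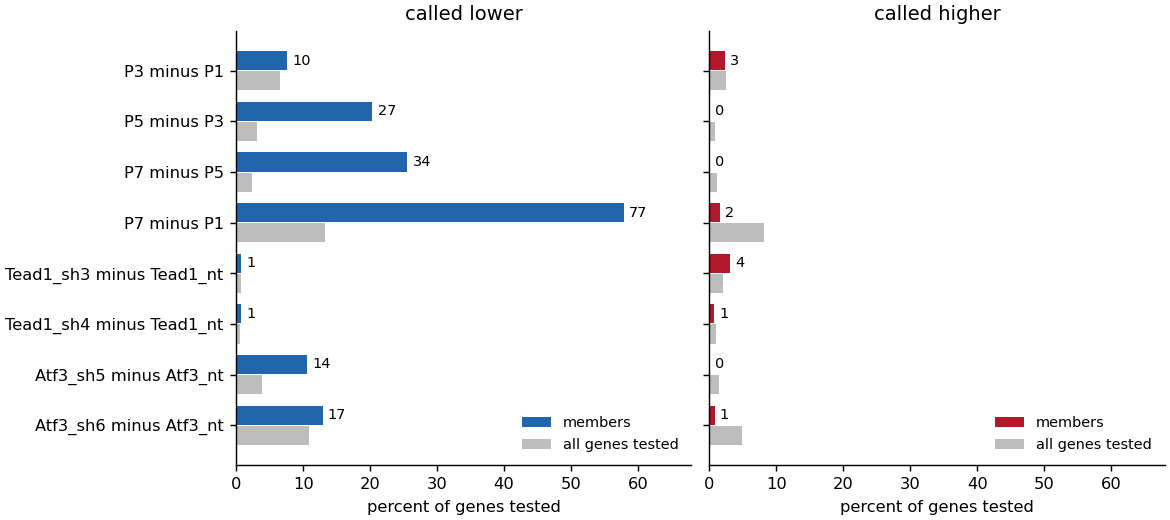
Percent of the members (blue, lower; red, higher; the number of members is written at the bar) and of all genes tested (grey) that were called, with adjusted p under 0.05 and over 2-fold, in the passage steps and the Tead1 and Atf3 knockdowns. The members' bars are longest for falls at P5 against P3 (27 members), P7 against P5 (34) and P7 against P1 (77). For falls with Atf3_sh5 (14) the members' bar is at 10.6% and the grey bar at 3.82%. The 2 bars are near each other for falls with Atf3_sh6 (17, 12.9% against 10.9%) and at P3 against P1 (10, 7.52% against 6.58%). Those for the Tead1 knockdown are short.

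ATAC-seq asked whether the promoters of the members lost open chromatin with passage. A promoter was the 1000 bases on each side of a start site, and its strength the percentile of its strongest peak by -log10 p within the sample, because the peak lists hold no read counts and their depth is unknown. Between 128 and 131 of the 132 members with a start site had a promoter peak in each of the 13 samples. The median percentile of the members was 90.1 to 91.5 at P1, then 88.6 to 91.1 at P3, 89.5 to 90.8 at P5 and finally 87.9 to 89.7 at P7. The passages were close, and over the genes tested the range was 89.2 to 89.9 at P1 and 87.2 to 88.2 at P7. The median change of single genes from P1 to P7 was -0.67 over the members, -1.86 over the 77 members called lower in RNA, and -1.01 over the genes tested. When each sample was cut to an equal number of its highest peaks, the medians fell further, from 87.8 to 88.9 at P1 to 81.4 to 83.9 at P7 for the members and from 86.8 to 87.9 to 79.2 to 82.3 for the genes tested.

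**Figure D5:**
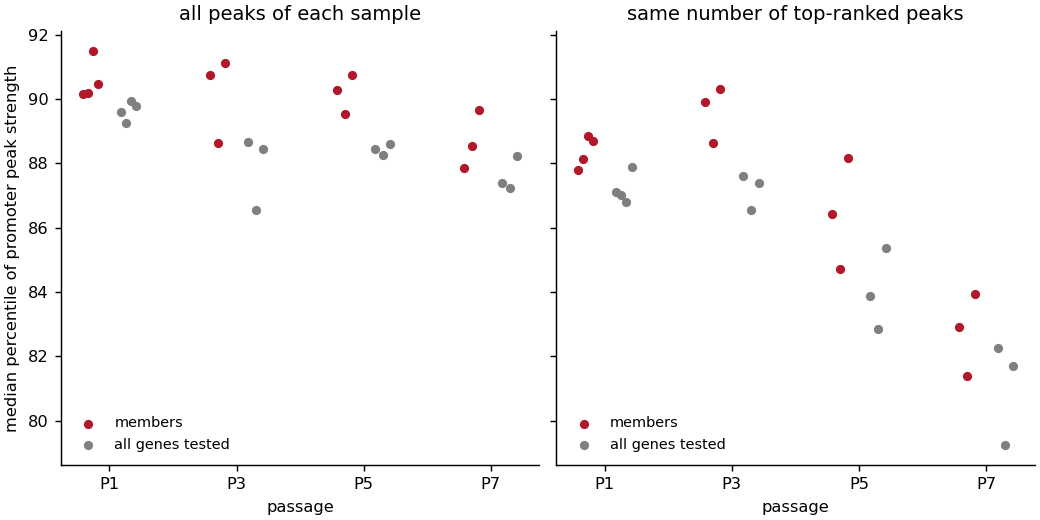
Median percentile of promoter peak strength over the members (red) and over all genes tested (grey) in each ATAC-seq sample by passage, from all peaks (left) and from an equal number of the highest peaks of each sample (right). The medians stay within a few percentiles with all peaks, and members and genes tested move together.

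Of 55 named members, 26 reached the smallest p that 4 against 3 samples allow in a two-sided exact permutation test (0.0286). Of these, 22 were lower at P7 and 4 higher, and the smallest adjusted p was 0.0604, so none passed after adjustment. How many of all genes tested separate in this way was not counted. A lower percentile at P7, of any size, was seen in 58.3% of the members and 61.9% of the genes tested. Some named genes were chosen by their RNA change from P1 to P7. The promoter peak of Mcm6 was at the percentile 94.9 ± 0.20 (SD, n = 4) at P1 and 78.7 ± 4.09 (SD, n = 3) at P7. That of Lmnb1 was at 89.5 ± 2.82 and 76.6 ± 0.66, that of Tmpo at 88.2 ± 2.03 and 73.9 ± 6.28, and that of Fbn2 at 46.5 ± 6.29 and 13.8 ± 9.16. In these 4 every P7 sample was below every P1 sample. By contrast the promoters of Cdt1 and Espl1, whose RNA fell by 2.52 and 3.28 on the log2 scale, were at higher percentiles at P7, 98.4 ± 0.56 against 96.5 ± 0.78 and 97.5 ± 0.43 against 95.2 ± 0.42. The peak lists held 168982 to 186562 peaks at P1 and 200376 to 231558 at P7, so a higher percentile within them need not be a stronger peak.

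The members' GC content is given because the E2f4_OE difference followed GC content across genes. Its part in the choice of members was not tested. The median GC content of their transcripts was 55.6%, close to the 55.4% of genes that met only the overexpression criterion and above the 50.7% of all genes with the CPM minimum. It was 52.1% in the cell-cycle members and 56.6% in the others. When each difference was first centred on genes of like GC content, a choice made after seeing the data, 94 genes met the thresholds and 93 of them were members. These kept 39 of the 41 cell-cycle members and 54 of the 92 others.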

How the data were processed

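RNA-seq libraries (44) and ATAC-seq samples (13) were used. According to the methods and the processing notes, RNA reads were trimmed (Trimmomatic 0.39) and aligned by HISAT2 2.2.1 to the mouse build mm10. The authors deposited HTSeq 0.12.4 counts per gene, without strand, so that a gene and an antisense partner share reads. The methods name the UCSC Table Browser as the source of the reference. GENCODE M21 was used here for the GC content of transcripts and for the start sites of the ATAC-seq promoters. Rows that name no gene were left out, and they held 7.5% to 16.8% of the counts in the manipulated libraries (7.5% to 7.9% in E2f4_OE, 12.3% to 12.9% in its control) and 0% in the passages. With them in the library sum, a choice made after seeing the data, the rule gave 110 members. For ATAC-seq the authors aligned with Bowtie2 2.3.5.1 and deposited 1 MACS2 peak list per sample, with fold enrichment and -log10 p and q values, on which the percentiles rest. Total counts were 9147324 to 27552949, and the number of libraries limits the precision.

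The members and the gene lists were chosen with earlier results of these data known. CPM used library sums with a pseudocount of 1 before log2. Passages, Tead1 and Atf3 libraries were fitted separately in edgeR 4.0.16 (R 4.3.3, filterByExpr, TMM, quasi-likelihood test, Benjamini-Hochberg over 13442, 13012 and 13345 genes), with all groups of an experiment in 1 fit. Called means an adjusted p under 0.05 and over 2-fold. The code was tested on simulated data. Python 3.11.15 with pandas 2.3.3 and scipy 1.17.1 computed the rest, and single promoter peaks were compared by a two-sided exact permutation test.

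Named genes were E2f4, Tead1 and Atf3, then the members with the 10 largest smaller-of-2 differences, the 8 lowest and 8 highest called changes from P1 to P7, the 3 lowest and 3 highest of each other comparison, both with an average log2 CPM of at least 3, up to 3 members a list by level in E2f4_nt, the genes beside each threshold, and Cdkn2a, Cdkn2b and Cdkn1a, 65 genes in all. Some of them are not reported here. Other genes named were chosen after their values were seen. Alternatives were DESeq2 1.42.0, its size factors, other filters on low counts, only the 2 groups compared, the replicate block, each library left out, and other thresholds. Alternatives on GC content and on the members other than E2f4 were chosen after seeing the data. Promoter forms came from RefSeq (GRCm38.p6).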

Additional observations from a re-analysis of the deposited data

Results flagged for a closer look

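Among 265 groups of 4 libraries and gene, 1 library lay far from the other 3 in 11, where chance sets off about 1 in 20 groups. These were Cit in replicate 1 of P1 (24.3 CPM), E2f4 in replicate 2 of P5 (36.9), Lmnb1 in replicate 2 of P1 (96.8), Ltbp4 in replicate 4 of P7 (34.0), Myc in replicate 3 of P7 (40.7) and Neurl1a in replicate 3 of P5 (4.87). The others were Nsun2 in replicate 3 of P3 (198 CPM), Osr1 in replicate 3 of P1 (16.8), Pkmyt1 in replicate 1 of P7 (2.88), Shmt2 in replicate 2 of P1 (271) and Tead1 in replicate 1 of P7 (264).

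For 9 pairs of gene and target, the 2 hairpins against 1 target differed by over 2-fold in a test of the difference itself (edgeR, adjusted). Erdr1 was lower in Tead1_sh4 than in Tead1_sh3 by a log2 fold change of -1.66 (edgeR, adjusted p = 0.000796), with the limit on its counting given above. In Atf3_sh6 minus Atf3_sh5 the log2 fold changes were -1.55 for Fbn2 (edgeR, adjusted p = 1.23e-06), -1.20 for H19 (0.000464), -1.66 for Ltbp4 (0.000543), -1.42 for Osr1 (1.56e-05), 1.02 for Grwd1 (0.000658), 1.68 for Peg10 (2.35e-06), 1.08 for Ppif (7.37e-05) and 1.13 for Tead4 (0.00287).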

How the results depend on the processing

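No called log2 fold change of a named gene changed sign, but the members' median with Atf3_sh6 went from -0.14 to 0.03 with the GC offset. At an adjusted p under 0.05 and any fold change, members lower and higher were 67 and 6 at P3 against P1, 58 and 7 at P5 against P3, 63 lower at P7 against P5, 8 higher at P7 against P1, 25 and 22 with Tead1_sh3, 15 and 30 with Tead1_sh4, 42 and 4 with Atf3_sh5, and 35 and 19 with Atf3_sh6, while 17 differed between the Tead1 hairpins and 59 between the Atf3 hairpins. With the GC offset, chosen after seeing the data, 5 members were lower at P3, 4 were lower with Atf3_sh5 and 3 higher with Atf3_sh6, and with the replicate block as well 5, 4 and 3. Members chosen on GC-centred differences gave 6 lower at P3. With a threshold of 1 in both differences 2 members were left, and the counts of calls were 0 apart from 1 higher with Tead1_sh3 and 1 that differed between the Tead1 hairpins. From P3 in place of P1, 1 member was higher at P7. With 10 or more counts in every library, 0 were higher with Tead1_sh4 and 9 lower with Atf3_sh5. With only the 2 groups compared, 7 were lower with Atf3_sh5 and 2 higher with Atf3_sh6. DESeq2 found 0 members different between the Tead1 hairpins. The rule gave 15 members at a threshold of 0.75 and 81 at a CPM minimum of 20. The median promoter percentile moved by -1.89 from P1 to P7, and by -5.63 with the same count of top peaks in each sample. E2F forms with 1 more T stood in 16.5% of member promoters. The cause of these shifts was not tested.

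With 1 library left out at a time, members lower and higher were 7 to 12 and 2 to 3 at P3 against P1, 23 to 33 and 0 to 2 at P5 against P3, 29 to 41 and 0 to 0 at P7 against P5, and 72 to 77 and 2 to 3 at P7 against P1. They were 1 to 1 and 1 to 4 with Tead1_sh3, 1 to 1 and 1 to 1 with Tead1_sh4, 7 to 19 and 0 to 0 with Atf3_sh5, and 13 to 19 and 1 to 2 with Atf3_sh6, where the 2 came without replicate 3 of Atf3_sh5. Between hairpins 1 to 1 differed for Tead1 and 16 to 22 for Atf3, the members numbered 124 to 171, and the promoter shift was -2.38 to -1.47. Over named genes, 53 of 2310 alternatives lost a call, in 8 results.

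Replicate numbers are shared between groups, but samples with 1 number deviated together in only 13 of 24 pairs of the passages (r over 0.1), 1 of 9 for Tead1 and 3 of 9 for Atf3, and 11 of 24, 2 of 9 and 3 of 9 correlated best with their own number. With the replicate block, members lower were 11, 29, 34 and 77 in the passage comparisons, 1 and 1 with Tead1_sh3 and Tead1_sh4, and 18 and 18 with Atf3_sh5 and Atf3_sh6.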
